A study of Mus musculus with 9 samples.

Results

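The 10 genes described here are the D cyclins Ccnd1, Ccnd2 and Ccnd3, the E cyclins Ccne1 and Ccne2, the kinases Cdk4 and Cdk6, and the inhibitors Cdkn1a (p21), Cdkn1b (p27) and Cdkn2c (p18). They were taken by symbol, and all 10 were found among the 55488 genes listed for every library. Mammalian cells pass from G1 into S phase when cyclin-dependent kinases phosphorylate the retinoblastoma (RB) proteins and release E2F transcription factors. D-type cyclins pair with the kinases CDK4 and CDK6 early in G1, E-type cyclins pair with CDK2 late in G1, and CDK inhibitors of the CIP/KIP and INK4 families hold these kinases back. In blood formation these genes are known for setting how readily haematopoietic stem cells (HSCs) leave quiescence, and CDK6 also for its part in the exit of stem cells from it.

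The libraries came from fetal livers of C57BL/6 mice at embryonic day 14.5, with 3 libraries in each of 3 groups and 100 sorted cells behind each library. The Evi1 HSC group had the genotype Tie2-Cre::ROSA-Evi1 and was sorted as GFP+, CD150+, CD48-, c-Kit+, Sca-1+ and Lin-, the surface phenotype of stem cells. Tie2-Cre is a recombinase driver active in endothelial and blood cells, so activation of the allele is not confined to stem cells, and Evi1, a zinc finger factor, is the product of Mecom. The WT HSC group carried the ROSA-Evi1 allele without Cre and was sorted by that phenotype without GFP. The WT KL group had this same Cre-free genotype and was sorted as c-Kit+, Sca-1- and Lin-, a gate of committed progenitors. All 3 groups therefore carried the ROSA-Evi1 allele. No label states that replicates came from separate embryos, so p-values here cover the spread among these libraries alone, which may be technical.

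A pair of libraries went against their labels. In Mecom, the gene behind Evi1, the Evi1 HSC libraries (numbered 1 to 3 by replicate) had 209, 176 and 210 TPM, a share of transcripts corrected for gene length. WT HSC 1 and 2 had levels of 161 and 114 TPM, against 0.0107 and 0.325 TPM in WT KL 2 and 3. The library labelled WT HSC 3 held 0.0167 TPM of Mecom, 0.631 TPM of the stem cell gene Hlf and 579 TPM of the myeloid gene Mpo, while Ly6a, which encodes Sca-1, was listed at 0. The library labelled WT KL 1 held 90.8 TPM of Mecom, 164 TPM of Hlf, 13.6 TPM of Mpo and 19.7 TPM of Ly6a. Over the tested genes, the library labelled WT HSC 3 correlated with WT KL 2 and 3 at a mean r of 0.972 and with WT HSC 1 and 2 at 0.832. For the library labelled WT KL 1 the mean r was 0.827 with the other WT KL libraries and 0.955 with WT HSC 1 and 2. Both were kept under their labels in a fit over all 9 libraries and left out of a fit over 7, and member values from both libraries are printed beside those of their groups. Between 18258 and 18806 genes reached 1 TPM in 6 libraries, against 15422 to 15819 in WT KL 2 and 3 and the library labelled WT HSC 3.

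Of the 10 genes, 8 reached 1 TPM in all 9 libraries. Cdkn1a did not pass the filter for testing, which was 1 TPM in at least 3 libraries, and Cdkn2c passed it only through the 3 libraries labelled WT KL. Counts of called genes are therefore given over the 8, with Cdkn2c apart. The threshold for a call was an adjusted p of 0.05 in limma's moderated test on log2(TPM + 1), adjusted by the Benjamini-Hochberg method over all 19461 tested genes, and a log2 fold change on that scale understates the change of low genes. In the fit over 9 libraries as labelled none of the 8 was called in any comparison, where 0.00514% of all tested genes were called for Evi1 HSC against WT HSC, 0.0103% for Evi1 HSC against WT KL and 0.00514% for WT HSC against WT KL. Their limma adjusted p there was 0.791 to 0.968, 0.31 to 0.68 and 0.963 to 0.992 in these comparisons, in that order. At an unadjusted p under 0.05, that fit gave 0, 4 and 0 of the 8, in the same order, and 907, 2956 and 282 of all genes. With those 2 libraries left out, the 8 divided by comparison. Between Evi1 HSC and WT HSC none was called (background 0.206% of all tested genes, 0.0565% higher and 0.149% lower). Between Evi1 HSC and WT KL 7 were called, 4 higher and 3 lower, on a background of 45.5% (31.3% higher and 14.3% lower). Between WT HSC and WT KL 7 were called, again 4 higher and 3 lower, on a background of 37.5% (26.7% higher and 10.8% lower). These last comparisons share the WT KL libraries. Evi1 HSC and WT KL differ in genotype as well as in sorting gate, so these cannot be told apart in that comparison.

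**Figure D1:**
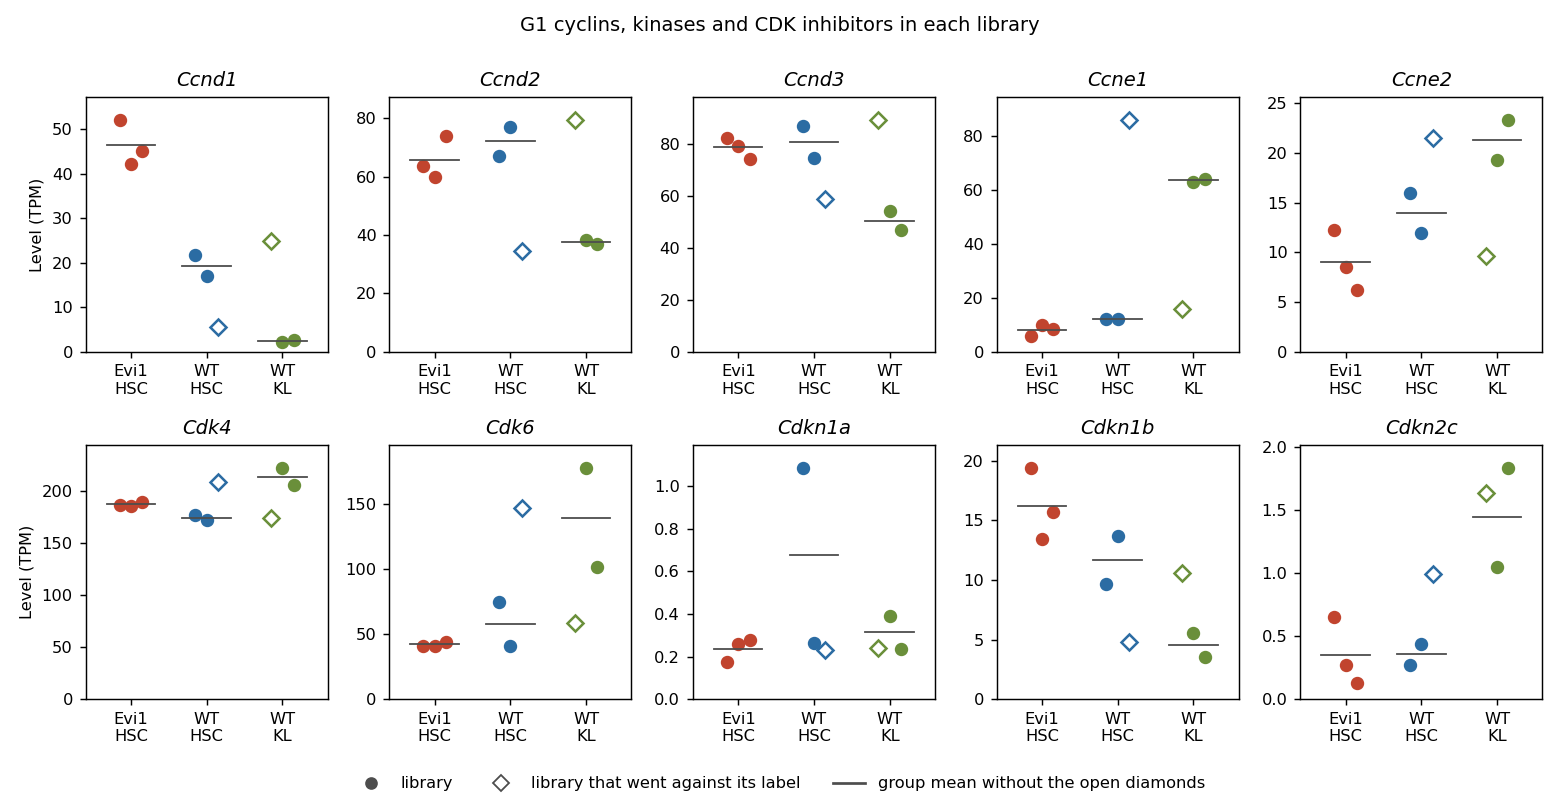
Level of each of the 10 genes in TPM (vertical axes, linear, each from 0) in every library of the Evi1 HSC, WT HSC and WT KL groups, with the group mean without the open diamonds as a line. Ccnd1 is at 42.1 to 52.0 TPM in Evi1 HSC libraries, above every other library. For Ccne1 the open diamonds, which mark the libraries that went against their labels, are at 85.8 TPM in WT HSC and 16.0 TPM in WT KL.

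Among the D cyclins, Ccnd1 was highest in Evi1 HSC. Its levels were 52.0, 42.1 and 45.2 TPM in Evi1 HSC 1 to 3, 21.6 and 17.1 TPM in WT HSC 1 and 2, and 2.13 and 2.61 TPM in WT KL 2 and 3. The library labelled WT HSC 3 held 5.50 TPM and that labelled WT KL 1 held 24.9 TPM, so all 3 Evi1 HSC libraries lay above all 6 of the others whichever way these 2 are treated. The mean was 46.5 ± 5.07 TPM in Evi1 HSC (SD, n = 3) and 19.4 ± 3.21 TPM in WT HSC (SD, n = 2), a ratio of 2.40, or 3.15 with all 3 libraries labelled WT HSC. The log2 fold change of 1.22 (SE 0.17) did not pass the test, with a limma adjusted p of 0.0653 over 7 libraries, and over 9 libraries it was 1.77 (SE 0.79, limma adjusted p = 0.791). Across 16 alternative settings of the 7-library fit the log2 fold change was 1.06 to 1.39 and the adjusted p 0.0545 to 0.297. In absolute log2 fold change Ccnd1 stood within the top 1.66% of tested genes. In bulk libraries, fewer cells of a type and less RNA per cell cannot be told apart.

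Against committed progenitors Ccnd1 was higher in both stem cell groups. The log2 fold change was 3.81 (SE 0.17, limma adjusted p = 2.63e-05) for Evi1 HSC against WT KL, where the mean ratio was 19.6. For WT HSC against WT KL it was 2.59 (SE 0.19, limma adjusted p = 0.000194), with a mean ratio of 8.17. Both calls held in all 16 alternatives of the 7-library fit. With 9 libraries the log2 fold change was 2.83 (SE 0.79, limma adjusted p = 0.31) for Evi1 HSC against WT KL, and leaving out the library labelled WT KL 1 made Ccnd1 a called gene there (log2 fold change 3.81, adjusted p 0.0424).

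Ccnd1 (ENSMUSG00000070348) lies on the minus strand of chromosome 7 at 144929931 to 144939925 (GRCm38). Of its 4709 exonic bases, 1100 (23.4%) overlap exons of LTO1 on the opposite strand, and no source used here says whether the counting used strand. LTO1, a ribosome biogenesis factor, stood at 16.0, 16.3 and 19.3 TPM in Evi1 HSC 1 to 3, at 9.42 and 17.1 TPM in WT HSC 1 and 2, and at 5.98 and 5.11 TPM in WT KL 2 and 3, with values of 8.30 TPM in that labelled WT HSC 3 and 15.2 TPM in that labelled WT KL 1. Without these 2, the levels overlapped between Evi1 HSC and WT HSC and were higher in both than in WT KL, and the part of shared exonic reads in the Ccnd1 values was not tested.

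Ccnd2 and Ccnd3, the D cyclins with the larger levels, overlapped between the stem cell groups. Ccnd2 (chromosome 6, 127125162 to 127152193) stood at 63.8, 59.8 and 73.9 TPM in Evi1 HSC 1 to 3, at 67.2 and 77.1 TPM in WT HSC 1 and 2, and at 38.3 and 36.9 TPM in WT KL 2 and 3. Its value was 34.6 TPM in the library labelled WT HSC 3 and 79.3 TPM in that labelled WT KL 1. The Evi1 HSC and WT HSC levels overlapped (log2 fold change -0.13, SE 0.13, limma adjusted p = 0.858), and both lay above those of WT KL 2 and 3. Evi1 HSC exceeded WT KL by a log2 fold change of 0.79 (SE 0.13, limma adjusted p = 0.00338) and WT HSC exceeded it by 0.92 (SE 0.15, limma adjusted p = 0.00362).

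Ccnd3 (chromosome 17, 47505051 to 47599691), a D cyclin known for its role in lymphoid and erythroid cells, stood at 82.5, 79.6 and 74.5 TPM in Evi1 HSC 1 to 3, at 87.2 and 74.9 TPM in WT HSC 1 and 2, and at 54.2 and 47.0 TPM in WT KL 2 and 3. In the library labelled WT HSC 3 the level was 58.8 TPM, and in that labelled WT KL 1 it was 89.3 TPM. Here too the stem cell groups overlapped (log2 fold change -0.04, SE 0.12, limma adjusted p = 0.97). The log2 fold change was 0.63 for Evi1 HSC against WT KL (SE 0.12, limma adjusted p = 0.00631) and 0.67 for WT HSC against WT KL (SE 0.14, limma adjusted p = 0.00932). Without WT KL replicate 3 the second of these was not called (adjusted p 0.0568).

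Ccnd1 made up a larger share of the D cyclin pool in Evi1 HSC, at a mean of 24.3 ± 1.71% (SD, n = 3), than in WT HSC, at 11.2 ± 1.55% (SD, n = 2), while the pool itself averaged 191 ± 8.68 TPM and 173 ± 4.81 TPM in these groups. Since TPM is scaled by gene length, levels can be summed across genes. Summed D cyclins were 198, 182 and 194 TPM in Evi1 HSC 1 to 3, 176 and 169 TPM in WT HSC 1 and 2, and 94.6 and 86.5 TPM in WT KL 2 and 3. Ccnd1 made up 26.2, 23.2 and 23.3% of that sum in Evi1 HSC, 12.3 and 10.1% in WT HSC 1 and 2, and 2.25 and 3.02% in WT KL 2 and 3, and these ranges did not overlap. In the library labelled WT HSC 3 the Ccnd1 share was 5.56%, and in that labelled WT KL 1 it was 12.9%. Ccnd3 was the largest of the 3 in each library, at 38.5 to 43.8% of the sum in Evi1 HSC, except in WT HSC 2 where Ccnd2 was, at 45.6% against 44.3% for Ccnd3. The exact permutation test of 3 against 3 libraries cannot give a p below 0.10, and none is given for the shares.

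**Figure D2:**
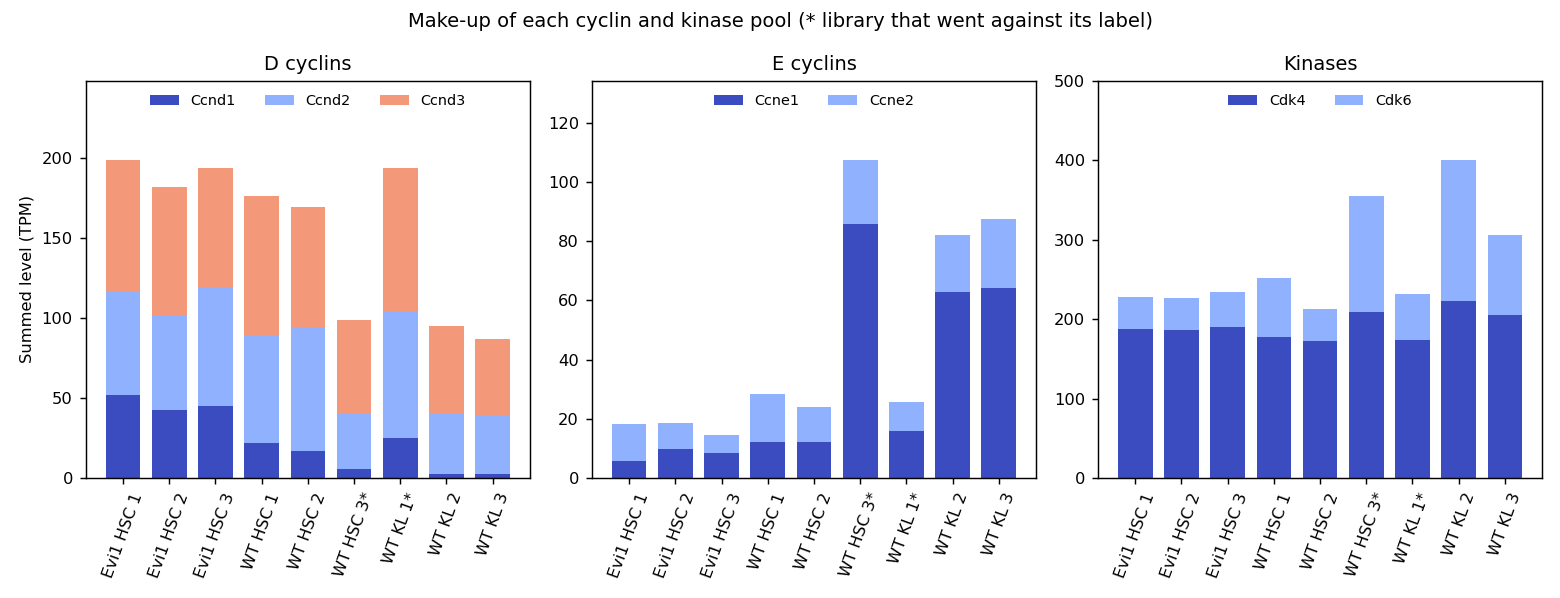
Summed TPM (vertical axes, from 0) of the 3 D cyclins, the 2 E cyclins and the kinases Cdk4 and Cdk6 in each library, stacked by gene, with an asterisk on the libraries that went against their labels. The Ccnd1 band is widest in the Evi1 HSC bars, and E cyclin bars are 14.6 to 18.4 TPM in Evi1 HSC libraries against 82.2 and 87.4 TPM in WT KL 2 and 3.

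The E cyclins ran the other way. Ccne1 (chromosome 7, 38097984 to 38107534) stood at 5.87, 9.92 and 8.36 TPM in Evi1 HSC 1 to 3, at 12.3 and 12.2 TPM in WT HSC 1 and 2, and at 62.9 and 64.2 TPM in WT KL 2 and 3. The library labelled WT HSC 3 held 85.8 TPM, the highest of the 9, and that labelled WT KL 1 held 16.0 TPM. All 3 Evi1 HSC libraries were therefore below all 6 others. Against WT HSC the difference did not pass the test (log2 fold change -0.57, SE 0.21, limma adjusted p = 0.528), with a mean ratio of 0.658. With all 9 libraries the log2 fold change was -1.48 (SE 0.79, limma adjusted p = 0.791) and the mean ratio 0.219. Against WT KL, Ccne1 was lower in Evi1 HSC with a log2 fold change of -2.86 (SE 0.21, limma adjusted p = 0.000107) and in WT HSC with -2.29 (SE 0.23, limma adjusted p = 0.000604). The mean ratio to WT KL was 0.127 for Evi1 HSC and 0.193 for WT HSC, and both calls held in all 16 alternatives.

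Ccne2 (chromosome 4, 11191351 to 11204779), the second E cyclin, stood at 12.2, 8.47 and 6.24 TPM in Evi1 HSC 1 to 3, at 16.0 and 11.9 TPM in WT HSC 1 and 2, and at 19.3 and 23.3 TPM in WT KL 2 and 3. Its value was 21.5 TPM in the library labelled WT HSC 3 and 9.64 TPM in that labelled WT KL 1. The stem cell groups overlapped (log2 fold change -0.61, SE 0.28, limma adjusted p = 0.617). Evi1 HSC was lower than WT KL with a log2 fold change of -1.20 (SE 0.28, limma adjusted p = 0.0117), a call lost without WT KL replicate 3 (adjusted p 0.0825). The value for WT HSC against WT KL, -0.59 (SE 0.30), was not called (limma adjusted p = 0.169). Of the 3495 exonic bases of Ccne2, 609 overlap Ints8 on the opposite strand, which stood at 20.8 to 29.5 TPM in Evi1 HSC 1 to 3 and 20.7 and 23.4 TPM in WT HSC 1 and 2, against 52.7 and 39.4 TPM in WT KL 2 and 3, and its part in the Ccne2 values was not tested.

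Ccne1 made up 32.4, 53.9 and 57.3% of the summed E cyclins in Evi1 HSC and 43.4 and 50.6% in WT HSC 1 and 2, against 76.5 and 73.4% in WT KL 2 and 3. The shares overlapped between the stem cell groups and were lower in both than in WT KL 2 and 3. D cyclins per E cyclin, as a ratio of summed TPM, were 10.97, 9.87 and 13.3 in Evi1 HSC, 6.24 and 7.02 in WT HSC 1 and 2, and 1.15 and 0.990 in WT KL 2 and 3. That ratio was 0.922 in the library labelled WT HSC 3 and 7.56 in that labelled WT KL 1, so the Evi1 HSC libraries were above all others in it.

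Promoter sequence was available for 7 of the 10 genes in RefSeq's table for GRCm38.p6, which gives 250 bases before and 50 after an annotated RefSeq start and holds 10 windows for these 7 genes, and 4 promoters are shown for the genes with levels that ran in opposite directions or stayed nearly level. In each, capitals mark the E-box CACGTG, a site read by MYC-type factors, and the GC-box GGGCGG, read by SP1-type factors, found on either strand (the reverse complement of the GC-box is CCGCCC). The Ccne1 window lies on the minus strand at chr7:38107441-38107740 and holds 4 GC-boxes and no E-box.
Ccne1: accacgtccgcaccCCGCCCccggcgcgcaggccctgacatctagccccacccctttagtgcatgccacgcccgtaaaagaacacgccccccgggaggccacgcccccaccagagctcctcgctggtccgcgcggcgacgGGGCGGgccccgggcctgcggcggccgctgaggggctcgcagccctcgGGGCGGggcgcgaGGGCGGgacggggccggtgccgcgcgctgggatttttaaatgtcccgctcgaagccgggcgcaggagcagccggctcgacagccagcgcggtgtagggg

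Of 32851 promoters in the table, 35.7% hold a GC-box and 7.15% an E-box. The E2F words TTTGGCGC, TTTCGCGC, TTTCCCGC and TTTGCCGC (2.26% of promoters hold at least 1), the GATA word AGATAA (11.2%) and the Evi1 word ACAAGATA (0.575%), searched on both strands, were in none of the 10 windows of the 7 genes. A match describes these letters and shows no binding, and no match says only that the letters are not in this window.

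The kinases differed from each other. Cdk4 was the most abundant of the 10 genes and the most even. It lies on chromosome 10 at 127063534 to 127067920 and stood at 187, 186 and 190 TPM in Evi1 HSC 1 to 3, 177 and 172 TPM in WT HSC 1 and 2, and 223 and 206 TPM in WT KL 2 and 3. The library labelled WT HSC 3 held 209 TPM and that labelled WT KL 1 held 174 TPM. Without these 2, the Evi1 HSC levels lay just above those of WT HSC without overlap, with a log2 fold change of 0.10 (SE 0.09) that did not pass the test (limma adjusted p = 0.816). Against WT KL the log2 fold change was -0.19 for Evi1 HSC (SE 0.09, limma adjusted p = 0.117), not called, and -0.29 for WT HSC (SE 0.09, limma adjusted p = 0.0487). The WT HSC call was lost in 12 of 16 alternatives, with adjusted p up to 0.191. Of the 3249 exonic bases of Cdk4, 641 (19.7%) overlap Tspan31 on the opposite strand, which stood at 37.4 to 41.7 TPM in Evi1 HSC 1 to 3, 29.1 and 36.9 TPM in WT HSC 1 and 2, and 38.1 and 35.2 TPM in WT KL 2 and 3, and its part in the Cdk4 values was not tested. The members other than Ccnd1, Ccne2 and Cdk4 share 0 to 7.86% of their exonic bases with another gene.

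The median log2 fold change of all tested genes was 0.28 for Evi1 HSC against WT KL and 0.26 for WT HSC against WT KL, and scaling each library by its median ratio brought these medians to 0.04 and 0.02. Under that scaling Cdk4 was lower in Evi1 HSC with a log2 fold change of -0.49 and in WT HSC with -0.58, with a limma adjusted p of 0.00244 in each, and Ccnd3 was higher by 0.34 and 0.38 (adjusted p 0.0415 and 0.0426). Of all called genes, the share that was higher was 68.7% in Evi1 HSC and 71.2% in WT HSC against WT KL as deposited, and 52.7 and 53.5% under median ratio scaling. No member's direction against WT KL changed with either scaling tried over 7 libraries.

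Cdk6 (chromosome 5, 3341485 to 3531008), the other D cyclin partner, stood at 40.8, 40.9 and 44.2 TPM in Evi1 HSC 1 to 3, at 74.4 and 41.1 TPM in WT HSC 1 and 2, and at 177 and 101 TPM in WT KL 2 and 3. In the library labelled WT HSC 3 the level was 146 TPM, and in that labelled WT KL 1 it was 58.1 TPM. Evi1 HSC libraries differed little among themselves, while the WT HSC pair was spread and reached down to the Evi1 HSC range. The log2 fold change was -0.39 for Evi1 HSC against WT HSC (SE 0.30, limma adjusted p = 0.801). It was -1.65 for Evi1 HSC against WT KL (SE 0.30, limma adjusted p = 0.00478) and -1.26 for WT HSC against WT KL (SE 0.33, limma adjusted p = 0.0247). The WT HSC call was lost without WT HSC replicate 2 (adjusted p 0.116) and without WT KL replicate 2 (0.125), with no filter on low values (0.0718) and with the compared groups fitted alone (0.068). As a share of Cdk4 plus Cdk6, Cdk6 made up 17.9, 18.0 and 18.9% in Evi1 HSC, 29.6 and 19.3% in WT HSC 1 and 2, and 44.4 and 32.9% in WT KL 2 and 3.

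The D cyclin sum per Cdk4 plus Cdk6, again a ratio of TPM, was 0.870, 0.800 and 0.828 in Evi1 HSC, 0.699 and 0.793 in WT HSC 1 and 2, and 0.236 and 0.282 in WT KL 2 and 3. Both stem cell groups lay above WT KL 2 and 3 in that ratio, and all Evi1 HSC libraries lay above both WT HSC libraries, although the closest values, 0.800 and 0.793, nearly met. The libraries labelled WT HSC 3 and WT KL 1 stood at 0.278 and 0.834, so the Evi1 HSC range overlaps with the second of them.

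The kinase promoters are set side by side because their levels ran differently. The Cdk4 window, on the plus strand at chr10:127063285-127063584, holds 4 E-boxes and 3 GC-boxes, 2 of which share 1 base, and the Cdk6 window, on the plus strand at chr5:3343643-3343942, holds 1 E-box and no GC-box. The RefSeq start behind the Cdk6 window lies inside the GENCODE gene, not at its first base. Among the 32851 promoters, 8 (0.0244%) hold 4 or more E-boxes.
Cdk4: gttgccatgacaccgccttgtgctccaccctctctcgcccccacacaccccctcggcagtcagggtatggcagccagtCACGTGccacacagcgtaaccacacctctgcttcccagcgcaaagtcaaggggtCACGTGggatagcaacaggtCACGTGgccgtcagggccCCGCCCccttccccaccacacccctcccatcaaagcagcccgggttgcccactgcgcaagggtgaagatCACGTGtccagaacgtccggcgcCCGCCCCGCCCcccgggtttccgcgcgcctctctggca
Cdk6: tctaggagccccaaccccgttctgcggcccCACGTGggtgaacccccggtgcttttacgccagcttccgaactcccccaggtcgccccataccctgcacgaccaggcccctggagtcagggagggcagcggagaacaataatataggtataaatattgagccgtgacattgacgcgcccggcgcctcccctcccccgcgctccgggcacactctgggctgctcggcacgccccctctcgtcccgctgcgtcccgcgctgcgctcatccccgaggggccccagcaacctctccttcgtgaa

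Among the inhibitors, Cdkn1b had the largest levels of the 3 members. It lies on chromosome 6 at 134920401 to 134925513 and encodes p27, which binds cyclin E with CDK2 and restrains it. Its levels were 19.4, 13.4 and 15.7 TPM in Evi1 HSC 1 to 3, 9.66 and 13.7 TPM in WT HSC 1 and 2, and 5.52 and 3.56 TPM in WT KL 2 and 3. The library labelled WT HSC 3 held 4.77 TPM and that labelled WT KL 1 held 10.6 TPM. The stem cell groups overlapped (log2 fold change 0.44, SE 0.25, limma adjusted p = 0.702). Against WT KL, Cdkn1b was higher in Evi1 HSC by a log2 fold change of 1.64 (SE 0.25, limma adjusted p = 0.00215) and in WT HSC by 1.20 (SE 0.27, limma adjusted p = 0.0144). The WT HSC call was lost without WT HSC replicate 2 (adjusted p 0.0824) and without WT KL replicate 3 (0.0836).

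Cdkn1b per summed E cyclin was 1.07, 0.729 and 1.08 in Evi1 HSC, 0.342 and 0.566 in WT HSC 1 and 2, and 0.0672 and 0.0407 in WT KL 2 and 3. The 3 groups did not overlap in this ratio. Its value was 0.0445 in the library labelled WT HSC 3 and 0.414 in that labelled WT KL 1, both below every Evi1 HSC library. The Cdkn1b promoter is shown as that of a member whose group means over the 7 libraries ran in the reverse order of those of Ccne1. Those of Ccnd1 did so too, and Ccnd2 and Ccnd3 were likewise lowest in WT KL. The Cdkn1b window lies on the plus strand at chr6:134920151-134920450 and holds 1 GC-box and no E-box.
Cdkn1b: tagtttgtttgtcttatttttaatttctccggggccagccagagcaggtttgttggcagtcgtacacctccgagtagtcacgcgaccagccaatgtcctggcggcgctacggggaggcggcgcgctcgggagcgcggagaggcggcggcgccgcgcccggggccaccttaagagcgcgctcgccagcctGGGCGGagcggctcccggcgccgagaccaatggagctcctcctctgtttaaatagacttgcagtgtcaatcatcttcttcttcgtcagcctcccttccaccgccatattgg

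The other inhibitors among the 10 were near the floor. Cdkn1a (chromosome 17, 29090976 to 29100727), which encodes the p53-induced inhibitor p21, was at 0.172, 0.261 and 0.279 TPM in Evi1 HSC 1 to 3, 1.09 and 0.265 TPM in WT HSC 1 and 2, and 0.392 and 0.236 TPM in WT KL 2 and 3. The libraries labelled WT HSC 3 and WT KL 1 held 0.232 and 0.242 TPM, so WT HSC 1 alone reached 1 TPM and Cdkn1a was not tested. Cdkn2c (chromosome 4, 109660876 to 109667189), which encodes the INK4 inhibitor p18 of CDK4 and CDK6, was at 0.652, 0.270 and 0.126 TPM in Evi1 HSC 1 to 3, 0.273 and 0.436 TPM in WT HSC 1 and 2, and 1.05 and 1.83 TPM in WT KL 2 and 3. In the library labelled WT HSC 3 the level was 0.992 TPM, and in that labelled WT KL 1 it was 1.63 TPM, 1 of the values through which the gene passed the filter. Since it entered the fit only through libraries labelled WT KL, no call against WT KL is read from it. All 5 stem cell libraries of the 7 lay below WT KL 2 and 3, and the Evi1 HSC and WT HSC levels overlapped. TPM keeps no read depth, so the counting error of these low values is unknown.

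**Figure D3:**
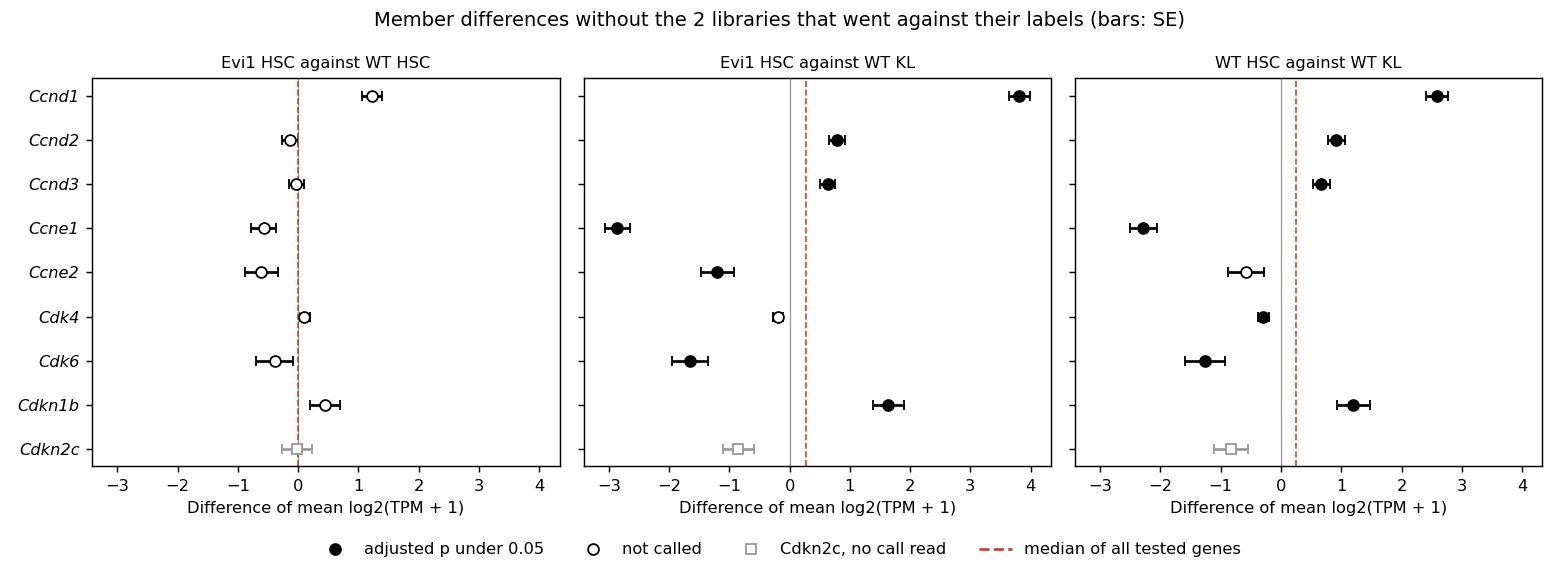
Difference of mean log2(TPM + 1) with its SE (horizontal axes) for the 9 tested members in the 3 comparisons, over 7 libraries. Filled points were called by limma, open circles were not, the grey square is Cdkn2c, for which no call is read, and the dashed line is the median of all tested genes; between Evi1 HSC and WT HSC no point is filled, with Ccnd1 furthest out at 1.22.

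Over the 7 libraries, the order of the levels put WT KL lowest for the 3 D cyclins and Cdkn1b and highest for the E cyclins and both kinases. All 8 members present in every library had no overlap between Evi1 HSC and WT KL, or between WT HSC and WT KL, with 4 higher and 4 lower in each (background 43.6% higher and 22.9% lower for Evi1 HSC, and 47.4% higher and 25.2% lower for WT HSC). Between Evi1 HSC and WT HSC, Ccnd1 and Cdk4 were higher and Ccne1 lower without overlap (background 11.8% higher and 12.3% lower). With all 9 libraries as labelled, 2 of the 8 were apart in that comparison, Ccnd1 higher and Ccne1 lower (background 9.19 and 6.76%). Against WT KL with 9 libraries, Evi1 HSC was apart in 4 of the 8, Ccnd1 and Cdkn1b higher and Ccne1 and Cdk6 lower (background 13.5 and 10%), and WT HSC in 0 of the 8 (background 1.42 and 1.94%).

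Beyond the 10 genes, 7 lists of cell cycle genes and their regulators with 91 genes were looked up, and none held a called gene between Evi1 HSC and WT HSC in either fit. The list medians there were 0.32 for 3 tested CDK inhibitors, -0.05 for RB and E2F genes, 0.07 for other kinases and activators, -0.07 for E2F targets of S phase, 0.29 for G2 and M phase genes, -0.16 for p53 targets beside Cdkn1a and -0.02 for upstream regulators, beside 0.0005 for all genes. The smallest adjusted p of a list gene over 7 libraries was that of Gfi1b, a repressor, named here after its values were seen, at 10.7, 6.97 and 9.43 TPM in Evi1 HSC 1 to 3 and 21.2 and 21.4 TPM in WT HSC 1 and 2 (log2 fold change -1.17, limma adjusted p = 0.113). In the fit over 9 libraries no list gene was called in the other comparisons either. The following counts are therefore from 7 libraries.

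Cdkn1c and Cdkn2d were the called genes among 3 tested CDK inhibitors beside the members, both higher in each stem cell group than in WT KL, where 31.3 and 26.7% of all genes were called higher. Cdkn1c, which encodes the CIP/KIP inhibitor p57, stood at 30.8, 27.1 and 35.5 TPM in Evi1 HSC 1 to 3, 21.7 and 27.8 TPM in WT HSC 1 and 2, and 1.44 and 1.29 TPM in WT KL 2 and 3. It was thus above Cdkn1b in every Evi1 HSC and WT HSC library of the 7 and below it in WT KL. The libraries labelled WT HSC 3 and WT KL 1 held 0.160 and 28.7 TPM. Its log2 fold change was 3.76 for Evi1 HSC against WT KL (limma adjusted p = 3.27e-05) and 3.44 for WT HSC against WT KL (limma adjusted p = 9.71e-05). Cdkn2d, which encodes the INK4 inhibitor p19, was higher by 1.81 in Evi1 HSC (limma adjusted p = 0.00131) and by 1.48 in WT HSC (limma adjusted p = 0.00581). Cdkn3, a phosphatase, was not called, and Cdkn2a and Cdkn2b stood at 0.119 TPM or below in every library.

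E2F targets of S phase were lower in the stem cell gates. Of 18 such genes, 14 fell and none rose in Evi1 HSC against WT KL (list median -0.79), and 15 fell and none rose in WT HSC against WT KL (list median -0.75), beside medians of 0.28 and 0.26 and lower calls in 14.3 and 10.8% of all genes. Rrm2, a ribonucleotide reductase subunit, stood at 48.5, 46.7 and 48.5 TPM in Evi1 HSC 1 to 3 and 57.1 and 58.3 TPM in WT HSC 1 and 2, against 198 and 191 TPM in WT KL 2 and 3. Cdc6, a loader of the replicative helicase, was lower in Evi1 HSC (log2 fold change -1.64, limma adjusted p = 0.000471), and Mcm5, a helicase subunit, in WT HSC (log2 fold change -0.90, limma adjusted p = 0.00139). Of 18 G2 and M phase genes, 4 fell in Evi1 HSC (list median -0.26) and 8 in WT HSC (list median -0.65), and none rose in either. Ccnb1, the mitotic cyclin B1, was lower in Evi1 HSC (log2 fold change -0.92, limma adjusted p = 0.00555) and in WT HSC (log2 fold change -1.14, limma adjusted p = 0.00455).

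RB and E2F genes were called in both directions. Of 13, 2 rose and 2 fell in Evi1 HSC against WT KL, and 3 rose and 3 fell in WT HSC against WT KL, with list medians of 0.14 and 0.18. Of all tested genes 31.3% were called higher and 14.3% lower in the first comparison, and 26.7% and 10.8% in the second. Higher calls were thus no more frequent in the list than among all genes. Lower calls were near that share in the first comparison and, at 3 of 13, above it in the second. E2f4, an E2F that acts with the pocket proteins in repression, stood at 30.6, 37.0 and 33.4 TPM in Evi1 HSC 1 to 3 and 45.6 and 38.2 TPM in WT HSC 1 and 2, against 119 and 103 TPM in WT KL 2 and 3. Rbl2, which encodes the pocket protein p130, was higher by a log2 fold change of 1.08 in Evi1 HSC (limma adjusted p = 0.00744) and 1.12 in WT HSC (limma adjusted p = 0.0113). Of 13 other kinases, activators and G1 turnover genes, 2 rose and 2 fell in Evi1 HSC, and 1 rose and 3 fell in WT HSC, on the same background. Cdk2, the partner of the E cyclins, was higher by 0.88 in Evi1 HSC (limma adjusted p = 0.00407) and by 0.71 in WT HSC (limma adjusted p = 0.0178), while Ccna2, the S phase cyclin A2, was lower in Evi1 HSC (log2 fold change -1.28, limma adjusted p = 0.000649) and in WT HSC (log2 fold change -1.35, limma adjusted p = 0.00116).

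Of 11 tested p53 targets, 4 rose and 5 fell in Evi1 HSC against WT KL and 5 rose and 4 fell in WT HSC against WT KL, where 31.3 and 26.7% of all tested genes were called higher and 14.3 and 10.8% lower. Trp53inp1 and Bbc3 passed the filter only through libraries among Evi1 HSC, WT HSC 1 and 2 and that labelled WT KL 1. The counts are over all 11 and include both. No call against WT KL is read from these genes, so the counts are not read against the background. Trp53inp1, given here by its levels alone, stood at 11.1, 9.83 and 14.9 TPM in Evi1 HSC 1 to 3 and 12.6 and 21.4 TPM in WT HSC 1 and 2. In WT KL 2 and 3 its level was 0.536 and 0.681 TPM. Of 10 tested upstream regulators, 5 rose and 3 fell in each comparison, on that background. Mycn, Egr1 and Nr4a1 passed the filter only through libraries among Evi1 HSC, WT HSC 1 and 2 and that labelled WT KL 1. Cebpa passed it only through WT KL 2 and 3 and the library labelled WT HSC 3. The counts are over all 10 and include these genes. No call against WT KL is read from these genes, so the counts are not read against the background either. Mycn stood at 91.0, 74.0 and 92.5 TPM in Evi1 HSC 1 to 3 and 86.9 and 87.6 TPM in WT HSC 1 and 2, against 0.0475 and 0.497 TPM in WT KL 2 and 3. Myc, named here after its values were seen, stood at 12.4, 9.90 and 19.1 TPM in Evi1 HSC 1 to 3 and 33.2 and 17.6 TPM in WT HSC 1 and 2, against 99.9 and 93.9 TPM in WT KL 2 and 3. The log2 fold change of Mycn against WT KL was 6.11 in Evi1 HSC and 6.14 in WT HSC, given without a call. With WT KL levels under 1 TPM, these sizes depend on the 1 added to TPM. Foxo1, a factor known to activate Cdkn1b, was higher than in WT KL by 1.88 in Evi1 HSC (limma adjusted p = 0.000538) and 1.75 in WT HSC (limma adjusted p = 0.00158). Gfi1b was lower in Evi1 HSC (log2 fold change -3.00, limma adjusted p = 6.68e-05) and in WT HSC (log2 fold change -1.83, limma adjusted p = 0.000961).

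**Figure D4:**
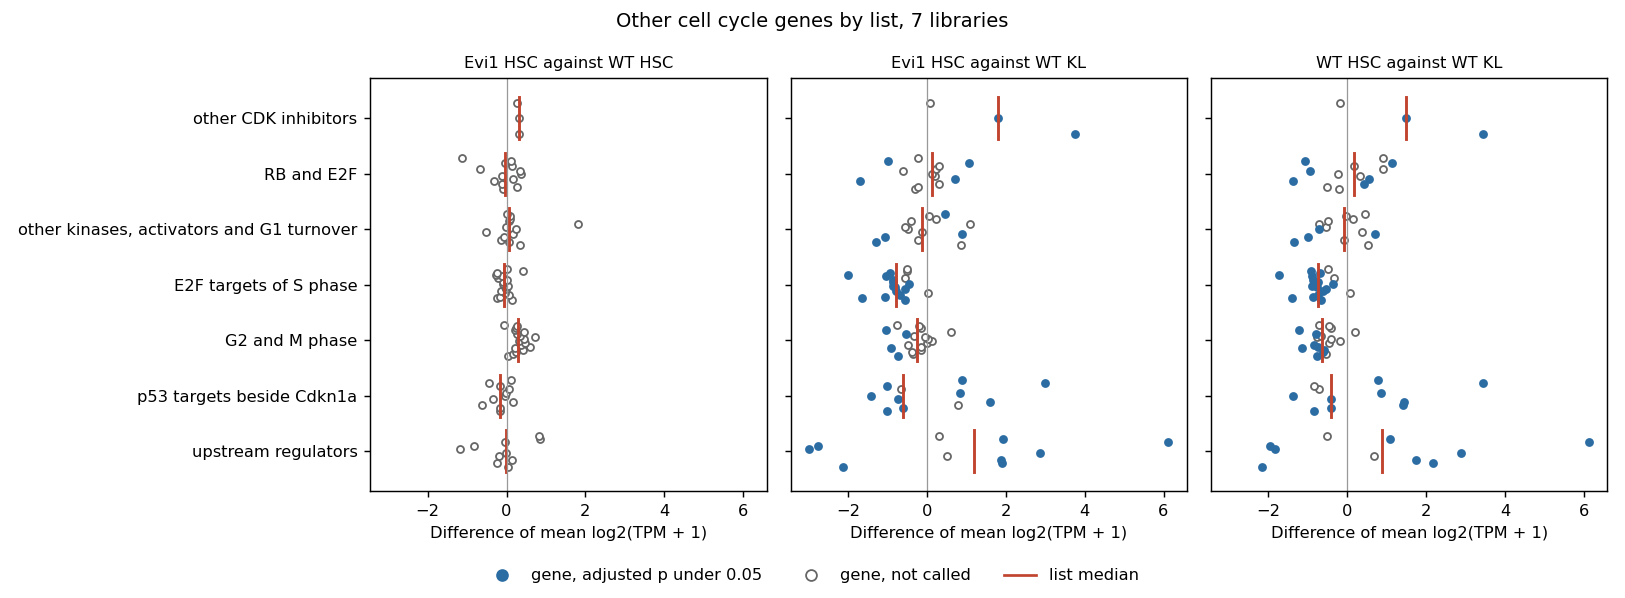
Difference of mean log2(TPM + 1) (horizontal axes) of each tested gene in 7 lists, in the 3 comparisons, from 7 libraries. Filled points were called by limma and the vertical bar is the list median; the 18 E2F targets of S phase lie mostly below 0 against WT KL, with medians of -0.79 and -0.75, and no point is filled between Evi1 HSC and WT HSC.

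Marker genes of other cells moved with the gates. The 10 stem cell markers summed to 746 to 834 TPM in Evi1 HSC 1 to 3, to 741 and 771 TPM in WT HSC 1 and 2, and to 26.8 and 19.7 TPM in WT KL 2 and 3. The 10 granulocyte and monocyte markers summed to 130 to 149 TPM in Evi1 HSC 1 to 3, 157 and 176 TPM in WT HSC 1 and 2, and 2120 and 652 TPM in WT KL 2 and 3. Most of the stem cell sums was Lyz2, at 93.0 to 110 TPM in Evi1 HSC 1 to 3 and 116 and 150 TPM in WT HSC 1 and 2, against 39.4 and 27.0 TPM in WT KL 2 and 3. Without Lyz2 the other 9 summed to 34.1 to 39.7 TPM in Evi1 HSC 1 to 3, 40.9 and 26.3 TPM in WT HSC 1 and 2, and 2081 and 625 TPM in WT KL 2 and 3. Most of these stem cell sums was Prtn3, which did not separate the gates. It stood at 26.5, 28.8 and 22.8 TPM in Evi1 HSC 1 to 3, 25.9 and 15.7 TPM in WT HSC 1 and 2, and 103 and 25.9 TPM in WT KL 2 and 3. Ctsg, S100a8 and S100a9 were listed at 0 in all 5 of these stem cell libraries. Cdk6, like the marker sums, was higher in WT KL 2 than in WT KL 3, and the part of myeloid cells in its levels was not tested. The 10 erythroid markers summed to 705 to 1727 TPM in Evi1 HSC 1 to 3, 683 and 827 TPM in WT HSC 1 and 2, and 1067 and 1039 TPM in WT KL 2 and 3, with 3538 TPM in the library labelled WT KL 1. These sums were largely the globins Hba-a1 and Hbb-bt. Without the globins, left out after their values were seen, the other 8 summed to 54.9, 21.1 and 20.2 TPM in Evi1 HSC 1 to 3, 115 and 114 TPM in WT HSC 1 and 2, and 660 and 687 TPM in WT KL 2 and 3, with 600 TPM in the library labelled WT HSC 3 and 111 TPM in that labelled WT KL 1. Klf1, an erythroid transcription factor, stood at 2.51, 0.474 and 0.110 TPM in Evi1 HSC 1 to 3, 23.1 and 21.1 TPM in WT HSC 1 and 2, and 147 and 151 TPM in WT KL 2 and 3. Ermap, an erythroid membrane protein gene, was at 1.61 TPM in Evi1 HSC 1 and listed at 0 in Evi1 HSC 2 and 3. Among these 8 markers, Alas2 and Slc4a1 did not run in the order of the sums. Alas2 averaged 9.62 TPM in Evi1 HSC, 7.51 TPM in WT HSC and 5.98 TPM in WT KL over the 7 libraries, with overlap. Slc4a1 averaged 4.97, 0.479 and 5.09 TPM in these groups, with 14.8 TPM in Evi1 HSC 1. The group means of Ccne1, Ccne2 and Cdk6 over the 7 libraries ran in the order of the sums without globins, lowest in Evi1 HSC. The part of erythroid cells in them was not tested. The 4 endothelial markers, which stem cells also express in part, summed to 59.4 to 81.3 TPM in Evi1 HSC 1 to 3, 36.2 and 73.2 TPM in WT HSC 1 and 2, and 4.33 and 2.61 TPM in WT KL 2 and 3. Their part in the Ccnd1 levels, which ran in that order of group means, was not tested. The 6 megakaryocyte markers summed to 17.6 to 26.8 TPM in Evi1 HSC 1 to 3, 28.5 and 20.3 TPM in WT HSC 1 and 2, and 8.90 and 8.71 TPM in WT KL 2 and 3. The 5 hepatocyte markers summed to 22.0 TPM in the library labelled WT KL 1 and to 6.03 TPM or less in the others.

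For the 3 members that varied most over the 9 libraries, the genes of most similar profile were sought by the root mean square difference of centred log2(TPM + 1), over all 9 libraries. For Ccnd1 these were Tap1 (0.294) and Arhgap30 (0.311), for Ccne1 Stom (0.250) and Slc22a23 (0.305), and for Cdk6 Ankrd9 (0.138) and Phf10 (0.185). Tap1 stood at 33.7, 31.4 and 26.0 TPM in Evi1 HSC 1 to 3, 16.1 and 20.8 TPM in WT HSC 1 and 2, and 1.37 and 1.58 TPM in WT KL 2 and 3. Stom stood at 4.22, 6.11 and 4.39 TPM in Evi1 HSC 1 to 3, 10.2 and 8.91 TPM in WT HSC 1 and 2, and 56.9 and 50.9 TPM in WT KL 2 and 3. The libraries fall into 2 clusters, so no correlation is given.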

How the data were processed

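RNA was measured in 9 libraries. The deposited TPM values, 1 library per file and none pooled, are per gene per the file headers. In the file of WT HSC replicate 2 the value column had another heading that no label explains, and it was used as TPM. The submitters' processing notes name HISAT2, StringTie and mm10, with no role or version, and no source used here gives the annotation or strand use. TPM keeps no depth, so no count model or counting interval was used, and listed genes summed to 56.9 to 63.8% of the full TPM scale.

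The log2(TPM + 1) values went into limma 3.58.1 (R 4.3.3), with a mean per group, a variance trend and Benjamini-Hochberg adjustment over the 19461 genes that reached 1 TPM in 3 libraries. The fits held 9 libraries as labelled, and 7 without those that went against their labels. The members, lists and tests were chosen with earlier results of these data known. Named list genes were up to 3 called genes per list and comparison with the smallest adjusted p whose higher group averaged 5 TPM or more, of which some are reported. Alternatives were the pseudocount, filter, scaling, variance trend, compared groups alone, the replicate number as a block and leaving out each library. Positions are from GENCODE on GRCm38 and promoters from RefSeq on GRCm38.p6.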

Additional observations from a re-analysis of the deposited data

How the results depend on the processing

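For the 8 members at 1 TPM in every library, 816 values were recomputed under the alternatives, of which 23 lost a call by limma's adjusted p and 2 gained one. Most of the 816 were not called to begin with and so had no call to lose. Cdk4 in WT HSC against WT KL over 7 libraries lost its call in 12 of 16 alternatives. No called value changed direction, while 17 uncalled values did, 13 of them over 9 libraries, at a log2 fold change of at most 0.21 in size. The counts of called members that follow include Cdkn2c. In WT HSC against WT KL over 7 libraries, 7 members were called, against 3 (Ccnd1, Ccnd2 and Ccne1) with the replicate number as a block, and 4 to 7 on leaving out each library, 4 without WT HSC replicate 2 or without WT KL replicate 3. Under the block the adjusted p was 0.0626 for Ccnd3, 0.151 for Cdk4, 0.0510 for Cdk6 and 0.0773 for Cdkn1b. In Evi1 HSC against WT KL over 9 libraries the count was 0, and 0 to 1 on leaving out each library, 1 (Ccnd1) without the library labelled WT KL replicate 1. Over 7 libraries it was 8, and 6 to 9 elsewhere, and in Evi1 HSC against WT HSC it was 0 under every alternative of both fits. Without Cdkn2c, 7 were called in WT HSC against WT KL over 7 libraries and 3 to 7 elsewhere, and 7 in Evi1 HSC against WT KL and 6 to 8 elsewhere. The cause of these changes was not tested. Over all genes, called genes in Evi1 HSC against WT HSC numbered 40 over 7 libraries, 0 with the block, 17 with a pseudocount of 5, 6 with the compared groups alone, 58 with no filter, 55 with no variance trend, 49 with listed genes rescaled and 5 to 27 on leaving out each library. Over 9 libraries they numbered 1, and 0 to 3 elsewhere, and 2 in Evi1 HSC against WT KL, and 1 to 96 elsewhere. In WT HSC against WT KL over 7 libraries they numbered 7307, and 4291 to 8021 elsewhere, and in Evi1 HSC against WT KL 8863, and 5575 to 9327 elsewhere. Over 7 libraries the deviations of same-numbered libraries from their group means correlated at -0.06 to -0.01, and over 9 libraries at -0.64 to 0.70. These values cannot decide whether the replicate numbers pair the libraries. In the first, WT HSC and WT KL keep only 2 libraries each, and the second includes the libraries that went against their labels. Depth is unknown, which limits Cdkn1a and Cdkn2c most.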
